A study of Mus musculus with 2 samples.

Results

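The 39 genes described here encode glucose and lactate transporters, the enzymes of glycolysis, the lactate dehydrogenases, and the mitochondrial enzymes that take pyruvate into and around the citric acid cycle. They were taken as a list of symbols and all 39 were found among the 21938 protein-coding genes of GENCODE M21 outside the mitochondrial genome. The list held 3 transporters, 19 glycolytic genes, 3 lactate dehydrogenases and 14 genes of pyruvate use and the citric acid cycle, called mitochondrial here although 1 of them, Mdh1, codes for a cytosolic enzyme. Open chromatin was read by DNase-seq, in which DNase I cuts accessible DNA in nuclei and sites dense in cuts are called as peaks. The tissue was hippocampus, labelled as a layer of it, from female mice of 8 to 10 months of the F1 cross B6CASTF1/J. There was 1 group, with no treatment named, and it had 2 libraries, each from a pool of 2 biosamples. The labels number the libraries as biological replicates without stating if each pool had its own animals, so the spread between the 2 may be partly technical, and the design allowed no test between groups.

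Glycolysis splits glucose into pyruvate in the cytosol and yields a little ATP. Pyruvate is then either reduced to lactate or carried into mitochondria, where pyruvate dehydrogenase turns it into acetyl-CoA for the citric acid cycle. Many steps have several isoenzymes coded by separate genes, and mammals use some of them chiefly in liver, muscle or sperm. Brain tissue burns glucose as its main fuel, and astrocytes are known for glycolysis, pyruvate carboxylation and lactate release, whereas neurons are known for oxidative use of pyruvate and lactate.

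A promoter window reached 500 bp up- and downstream of every transcript start in the annotation, and a gene is called open where a peak touched its promoter in both libraries. The value given for a promoter is the deposited signal of its highest peak, a height with no stated unit. It rose in equal steps of 0.00606 in replicate 1 and 0.00795 in replicate 2, and the libraries held 98902 and 130199 peaks. Marker genes of the tissue's cells were read in the same way. All 9 neuronal markers, 4 of 5 astrocyte markers, 3 of 4 oligodendrocyte markers and 1 of 4 microglial markers were open, and 0 of 3 endothelial, 0 of 3 choroid plexus, 0 of 5 testis, 0 of 3 liver and 0 of 4 skeletal muscle markers. In a bulk tissue, a low peak open in many cells and a high peak open in few cannot be told apart.

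The promoter sequences that the values below refer to come from the mm10 (GRCm38) assembly of RefSeq, each read 5′ to 3′ on the gene's strand. They are the parts of the replicate 2 peak that lie outside annotated exons, up to the 300 bases nearest the start, or for the closed promoter the bases just before the start. The Pcx peak was longer, and its first bases, with 1 further ACGTG match, are not printed. Capitals mark matches, on either strand, to ACGTG (the core of the hypoxia response element), CACGTG (an E-box), TGACGTCA (the cyclic AMP response element, CRE), GGGCGG (bound by Sp and KLF factors) and CCAAT (bound by NF-Y). ACGTG lies inside CACGTG on both strands, so 1 E-box also counts as 2 ACGTG matches. A match is a match of letters and not a binding site.

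The first pair is the highest promoter of the list and the highest among the glycolytic genes, Pcx at chr19:4510161-4510460 on the + strand and Aldoa at chr7:126799255-126799420 on the - strand.
Pcx: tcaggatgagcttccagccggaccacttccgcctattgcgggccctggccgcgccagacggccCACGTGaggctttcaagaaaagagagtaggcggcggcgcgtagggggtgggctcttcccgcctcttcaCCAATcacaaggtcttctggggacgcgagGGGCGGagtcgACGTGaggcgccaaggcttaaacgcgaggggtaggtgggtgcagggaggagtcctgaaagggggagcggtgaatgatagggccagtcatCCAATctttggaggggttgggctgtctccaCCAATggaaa
Aldoa: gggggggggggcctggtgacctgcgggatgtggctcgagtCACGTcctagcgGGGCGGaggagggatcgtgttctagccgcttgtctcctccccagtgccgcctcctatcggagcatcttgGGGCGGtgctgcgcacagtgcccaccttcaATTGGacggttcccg

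The next pair sets an open gene beside its closed isoenzyme, Pgk1 at chrX:106186881-106187099 on the + strand and Pgk2 at chr17:40208641-40208890 on the - strand. The Pgk1 stretch of 219 bases holds 14 CpG pairs and is 61.6% G and C, and the Pgk2 stretch of 250 bases holds 2 CpG pairs and is 38.8% G and C.
Pgk1: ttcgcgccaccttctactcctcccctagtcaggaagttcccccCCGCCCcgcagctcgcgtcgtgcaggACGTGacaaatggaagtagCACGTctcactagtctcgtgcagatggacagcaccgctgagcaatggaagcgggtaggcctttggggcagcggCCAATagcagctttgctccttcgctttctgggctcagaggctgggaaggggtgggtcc
Pgk2: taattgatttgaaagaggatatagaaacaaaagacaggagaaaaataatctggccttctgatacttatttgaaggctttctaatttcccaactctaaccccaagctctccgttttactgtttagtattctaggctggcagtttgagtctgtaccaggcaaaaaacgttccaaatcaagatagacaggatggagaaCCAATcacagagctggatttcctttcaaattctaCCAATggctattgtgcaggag

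The promoters of Ldha, at chr7:46845701-46845838 on the + strand, and of Hk2, at chr6:82774461-82774760 on the - strand, are shown because both hold several ACGTG letters, and that of Eno2, at chr6:124769674-124769742 on the - strand, because it was a peak in 1 library only.
Ldha: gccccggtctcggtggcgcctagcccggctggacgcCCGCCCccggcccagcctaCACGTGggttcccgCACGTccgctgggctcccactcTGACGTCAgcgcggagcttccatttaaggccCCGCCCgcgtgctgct
Hk2: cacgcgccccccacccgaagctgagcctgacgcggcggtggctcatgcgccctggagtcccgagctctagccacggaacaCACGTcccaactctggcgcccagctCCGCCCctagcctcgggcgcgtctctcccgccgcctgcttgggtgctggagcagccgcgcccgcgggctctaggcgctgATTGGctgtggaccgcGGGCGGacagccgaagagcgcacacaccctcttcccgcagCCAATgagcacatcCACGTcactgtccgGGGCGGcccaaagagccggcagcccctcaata
Eno2: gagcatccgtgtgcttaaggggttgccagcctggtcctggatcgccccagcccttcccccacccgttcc

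Promoter peaks were present in both libraries in 33 of the 39 genes (84.6%), in replicate 2 alone in 1 and in neither library in 5. Over all protein-coding genes, 59.2% were open in both libraries, 3.22% in replicate 2 alone and 36.4% in neither. All 3 transporters and all 14 mitochondrial genes were open, as were 14 of 19 glycolytic genes and 2 of 3 lactate dehydrogenases. The genes without a peak in either library were Gapdhs, Pgk2, Eno3, Pklr and Ldhc, and the gene with a peak in replicate 2 alone was Eno2. Those 5 closed genes are forms known from sperm, muscle, or liver and red cells. The mitochondrial group was listed without Pdha2, the testis form of pyruvate dehydrogenase, so the groups were not alike in makeup. Replicate 1 gave 33 members with a peak against 60.4% of all genes, and replicate 2 gave 34 against 62.4%. With the stricter peak lists the count was 31 (53.3% of all genes), with a window of 2000 bp it was 33 (63.5%), and at the 5′ end of the record alone it was 28 (53.3%). These counts are a description, since the genes were listed with earlier results of these data known.

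The open members were also high among open genes. Their mean signal over the 2 libraries had a median of 3.24 and ran from 0.637 to 9.60, against a median of 2.30 for the 12982 open genes. Of the 33 open members, 24 lay above that median and 13 above the upper quartile of all open genes, 4.06, while 3 lay below the lower quartile, 1.22. The mitochondrial genes had a median of 4.56, the glycolytic and lactate dehydrogenase genes together 3.07, and the 3 transporters 2.01. Above the upper quartile were 9 of the 14 mitochondrial genes and 4 of the 16 open glycolytic and lactate dehydrogenase genes.

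**Figure D1:**
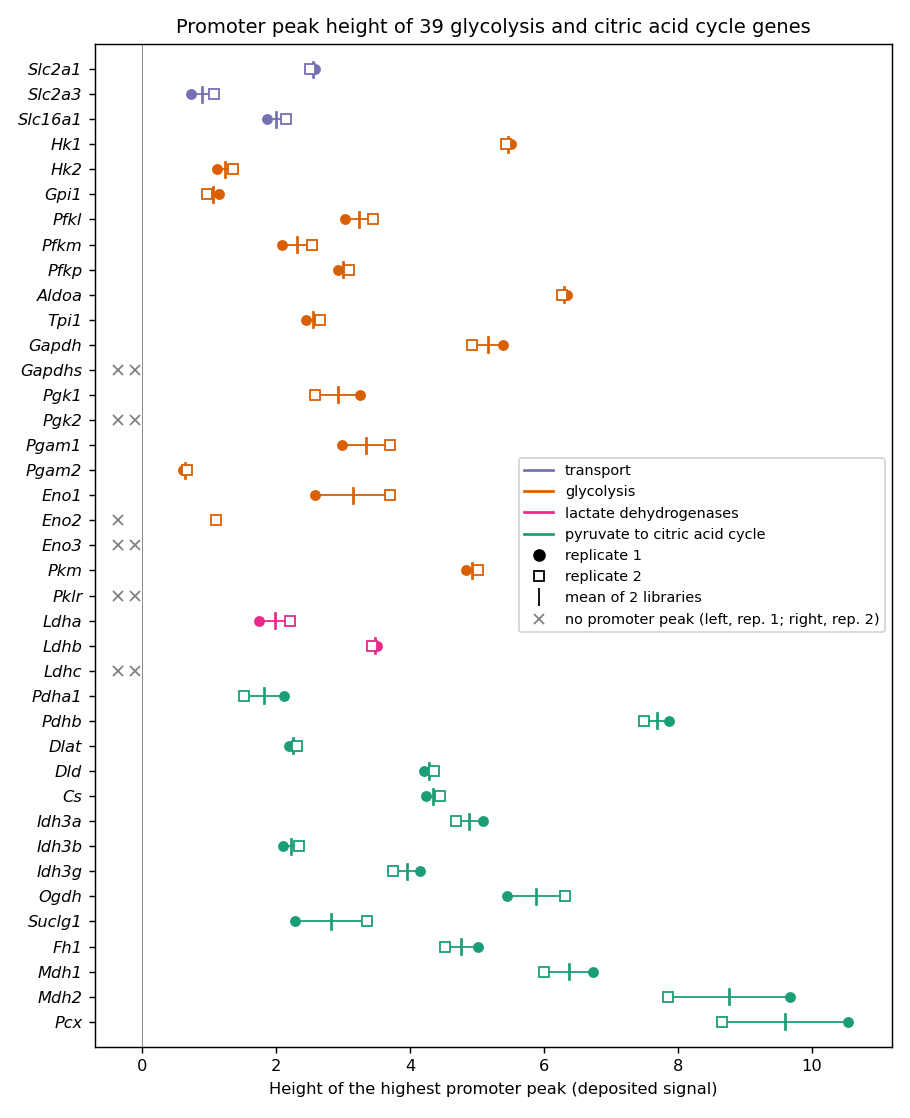
Height of the highest promoter peak (x axis, deposited signal) for each of the 39 genes (y axis), with a filled circle for replicate 1, an open square for replicate 2, a tick for their mean and grey crosses where a library had no promoter peak. The mitochondrial genes reach from Pdha1 at 1.82 to Pcx at 9.60, and Gapdhs, Pgk2, Eno3, Pklr and Ldhc have crosses in both libraries.

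Among the transporters, Slc2a1 (GLUT1), the glucose transporter of the blood-brain barrier and of astrocytes, stood at 2.59 in replicate 1 and 2.50 in replicate 2. Slc2a3 (GLUT3), the main glucose transporter of neurons, had 0.733 and 1.07, so its mean of 0.903 ± 0.241 (SD, n = 2) was lower than that of Slc2a1, 2.55 ± 0.0583, and the libraries' ranges did not overlap. The ratio of the means was 2.82. The highest Slc2a3 promoter peak lay at different starts in the 2 libraries, at the 5′ end of the record in replicate 1 and about 59 kb downstream in replicate 2. At the 5′ end the overlapping peaks were 0.733 and 0.779, and the highest replicate 2 peak there was 0.883. At the inner start the overlapping peaks were 0.709 and 1.07, so the gene was low at both. Slc16a1 (MCT1), which carries lactate and other monocarboxylates across the membrane, had 1.86 in replicate 1 and 2.15 in replicate 2 from its single annotated start.

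Hexokinases trap glucose in the cell by phosphorylating it. Hk1, the form known from brain, had 5.50 in replicate 1 and 5.43 in replicate 2, a mean of 5.47 ± 0.050 (SD, n = 2). Hk2, the insulin- and hypoxia-responsive form of muscle and tumours, had 1.13 and 1.35, so Hk1 was 4.41 times as high by the means and the ranges lay far apart. Of the 12 Hk1 transcript starts only 1 was open in both libraries, 39366 bp inside the record, where the highest peak also touched a start of the antisense RNA Hk1os. No peak of either library lay within 500 bp of the 5′ end of the Hk1 record.

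Gpi1 interconverts the 6-phosphates of glucose and fructose. Its promoter was among the lowest, at 1.16 in replicate 1 and 0.970 in replicate 2, and these heights came from neighbouring peaks about 0.4 kb apart. At the peak nearest the 5′ end the values were 0.927 and 0.970, and at the inner one 1.16 and 0.819. Phosphofructokinase makes the committed step, and the means of its subunit genes lay within a factor of 1.40. Pfkl, the liver-type subunit, had 3.03 and 3.44, Pfkp, the platelet-type subunit, had 2.92 and 3.09, and these ranges overlapped. Pfkm, the muscle-type subunit, had 2.09 and 2.54 at a start 15877 bp inside its record, below both of the others in each library. The mean of Pfkl was 1.40 times that of Pfkm. Pfkl also had its highest peak at different starts, since its downstream start gave 3.03 and 3.18 and its 5′ start 2.63 and 3.44.

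The steps that split and oxidise the sugar had some of the highest glycolytic promoters. Aldoa, the aldolase of muscle and brain, had 6.34 in replicate 1 and 6.27 in replicate 2, a mean of 6.30 ± 0.0508 (SD, n = 2) and the highest of the glycolytic genes. This peak lay at a start 1497 bp inside the record. GENCODE M21 holds a second record under the same symbol just upstream, whose own promoter peak was 2.51 and 2.46. Tpi1, triosephosphate isomerase, had 2.45 and 2.66. Gapdh, the oxidation step of the pathway, had 5.39 and 4.92, again at a start inside the record, 862 bp from its 5′ end. Gapdhs, the form of the same enzyme made in sperm, had no promoter peak in either library, and the peak nearest to its 5′ end was 13961 bp away in replicate 1 and 7223 bp away in replicate 2.

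The isoenzymes of phosphoglycerate kinase were open and closed, and those of phosphoglycerate mutase were both open at different heights. Pgk1, the X-linked form found in most tissues, had 3.25 in replicate 1 and 2.58 in replicate 2. Pgk2, an intron-less gene used in spermatogenesis, had no peak anywhere in its record or within 20 kb of it, and the nearest peaks were 66456 and 66441 bp from its 5′ end. Pgam1, the mutase of brain and most tissues, had 2.98 and 3.71. Pgam2, the muscle form, had 0.606 and 0.668, the lowest of all open members, and these heights amount to 100 and 84 steps of the signal. Its peaks were absent from the stricter peak lists of both libraries, and Pgam1 was 5.25 times as high by the means.

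The enolases convert 2-phosphoglycerate to phosphoenolpyruvate. Eno1, the widely used form, had 2.59 in replicate 1 and 3.70 in replicate 2, a mean of 3.14 ± 0.785 (SD, n = 2) that was among the widest spreads of the list. Eno2, known as neuron-specific enolase, had no promoter peak in replicate 1 and 1.11 in replicate 2, or 139 steps. Its promoter window held 25 bases with a false discovery rate below 0.05 in replicate 1 and 470.0 in replicate 2, with lowest values of 0.0125 and 0.00497. A further Eno2 peak of replicate 2, at 1.03, lay 1207 bp inside the record, near a group of further starts, and neither peak of replicate 2 was in its stricter list. The nearest replicate 1 peak was 10073 bp from the Eno2 5′ end. The 9 neuronal markers were open in both libraries, the lowest being Rbfox3 at 0.891 and 1.02. Why Eno2 had no promoter peak in replicate 1 was not tested. Eno3, the muscle form, had no promoter peak in either library, and its nearest peaks, 2002 and 1929 bp from the 5′ end, touched the promoter of the neighbouring gene Pfn1.

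Pyruvate kinase closes glycolysis, and lactate dehydrogenase interconverts pyruvate and lactate. Pkm, the form of muscle and brain, had 4.84 in replicate 1 and 5.01 in replicate 2. Pklr, the form of liver and red cells, had no promoter peak, with the nearest peaks 3622 and 3542 bp away. Ldhb, the subunit known from heart and neurons, had 3.51 and 3.44, and Ldha, the subunit known from muscle and astrocytes, had 1.75 and 2.21. Ldhb was thus higher than Ldha in both libraries with ranges apart, at 1.75 times by the means. The Ldha peak lay at a start 4364 bp inside its record. Ldhc, the sperm subunit next to Ldha, had no promoter peak, and the nearest peaks, 14111 and 14067 bp from its 5′ end, belonged to an Ldha promoter. None of the 5 closed genes had a base below a false discovery rate of 0.05 in its promoter window in either library.

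**Figure D2:**
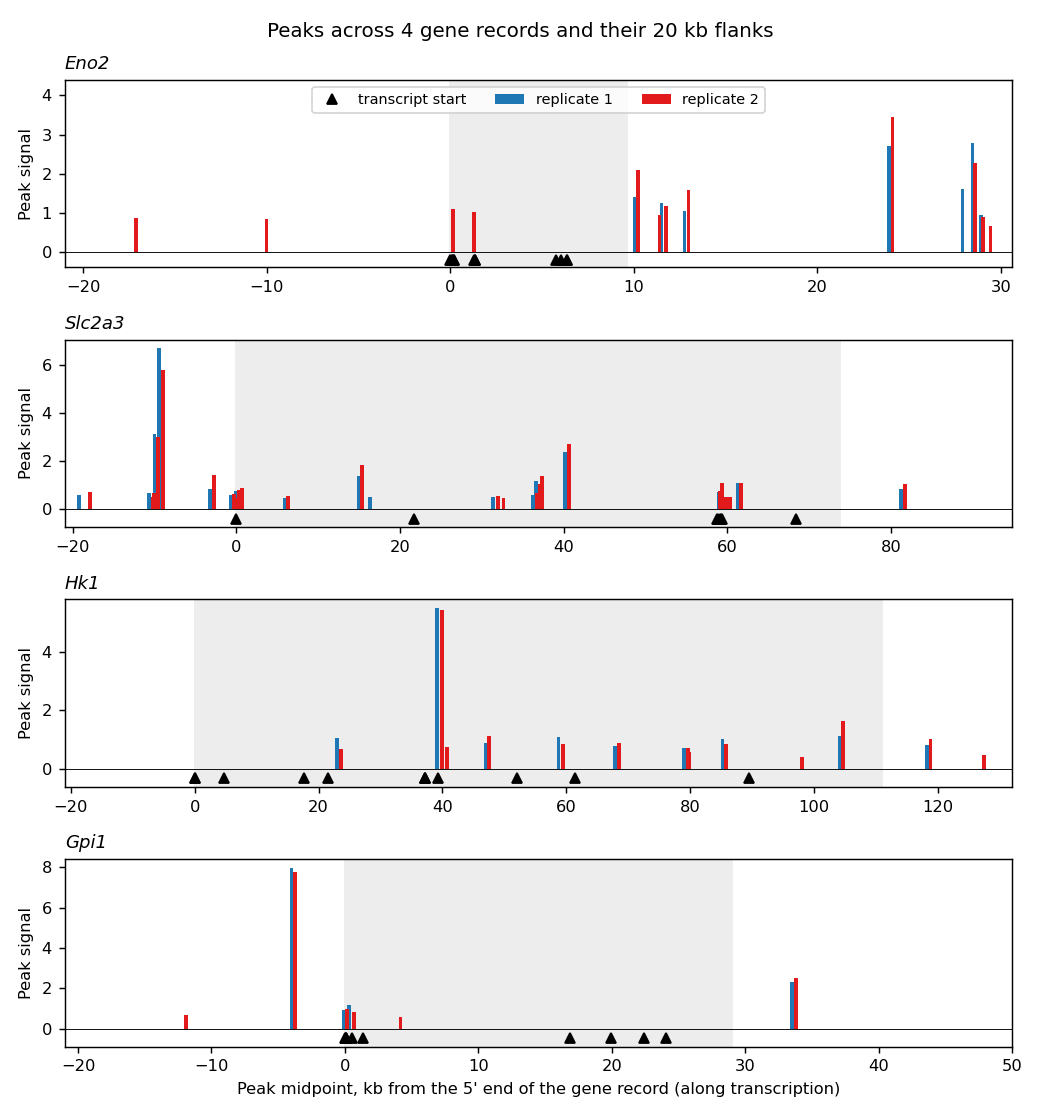
Signal of each peak (y axis) against its distance in kb from the 5′ end of the gene record (x axis, along transcription) for Eno2, Slc2a3, Hk1 and Gpi1, with replicate 1 in blue, replicate 2 in red, the record shaded and transcript starts as triangles; the 2 libraries' bars are drawn side by side. Eno2 has promoter bars of replicate 2 alone, at 1.11 and 1.03, Hk1 has its one high site inside the record, and the highest sites of Slc2a3 and Gpi1 lie upstream of the record.

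The genes that feed pyruvate into mitochondria held the highest promoter of the list. Pcx, pyruvate carboxylase, makes oxaloacetate from pyruvate and is known in brain as an enzyme of astrocytes. It had 10.5 in replicate 1 and 8.65 in replicate 2, a mean of 9.60 ± 1.34 (SD, n = 2) at percentile 98.3 of all open genes. The subunits of pyruvate dehydrogenase, which act in 1 complex, differed widely. Pdhb, the beta subunit of its first enzyme, had 7.86 and 7.50, whereas Pdha1, the X-linked alpha subunit of the same enzyme, had 2.12 and 1.53. Pdhb was 4.21 times as high as Pdha1 by the means, with ranges far apart. Dlat, the acetyltransferase subunit, had 2.20 and 2.31, and Dld, the dihydrolipoyl dehydrogenase that the complex shares with 2-oxoglutarate dehydrogenase, had 4.21 and 4.36.

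The cycle itself was open at every step on the list. Cs, citrate synthase, had 4.24 in replicate 1 and 4.45 in replicate 2. The 3 subunits of NAD-dependent isocitrate dehydrogenase fell in the order Idh3a at 5.08 and 4.68, Idh3g at 4.14 and 3.75, and Idh3b at 2.10 and 2.34, with no overlap between their ranges. Idh3a was 2.20 times as high as Idh3b by the means. Ogdh, the 2-oxoglutarate dehydrogenase, had 5.45 and 6.31, and Suclg1, the alpha subunit of succinyl-CoA ligase, had 2.28 and 3.36. Fh1, fumarase, had 5.02 and 4.52. Mdh2, the mitochondrial malate dehydrogenase, had 9.67 and 7.86, and Mdh1, its cytosolic partner in the malate-aspartate shuttle, had 6.73 and 6.003, so Mdh2 was higher in both libraries, at 1.38 times by the means. The peaks of 3 of these genes are shared with a neighbour, since the Mdh2 peak also touched the promoter of Styxl1, that of Mdh1 the promoter of Wdpcp and that of Idh3g the promoter of Ssr4. Their height cannot be given to 1 gene of each pair.

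Members were ranked by mean signal. Of the 32 pairs of adjacent open members, the ranges of the 2 libraries overlapped in 25 and lay apart in 7. Overlap sets values of different libraries side by side, and within each library some overlapping pairs kept their order. Pcx was above Mdh2 in both (10.5 against 9.67, and 8.65 against 7.86), whereas Mdh1 and Aldoa changed order (6.73 against 6.34, and 6.003 against 6.27). The steps that lay apart were Pdhb over Mdh1, Hk1 over Gapdh, Fh1 over Cs, Dld over Idh3g, Idh3g over Ldhb, Pdha1 over Hk2 and Slc2a3 over Pgam2. Replicate 2 was lower than replicate 1 in 15 of the 33 open members and in 3964 of the 12982 open genes, and the median log2 ratio of replicate 2 to replicate 1 was 0.05 for the members and 0.14 for all open genes. The 3 highest members, Pcx, Mdh2 and Pdhb, were all lower in replicate 2. No share for open genes of similar height is set beside this, so it is not read as a trait of these genes.

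**Figure D3:**
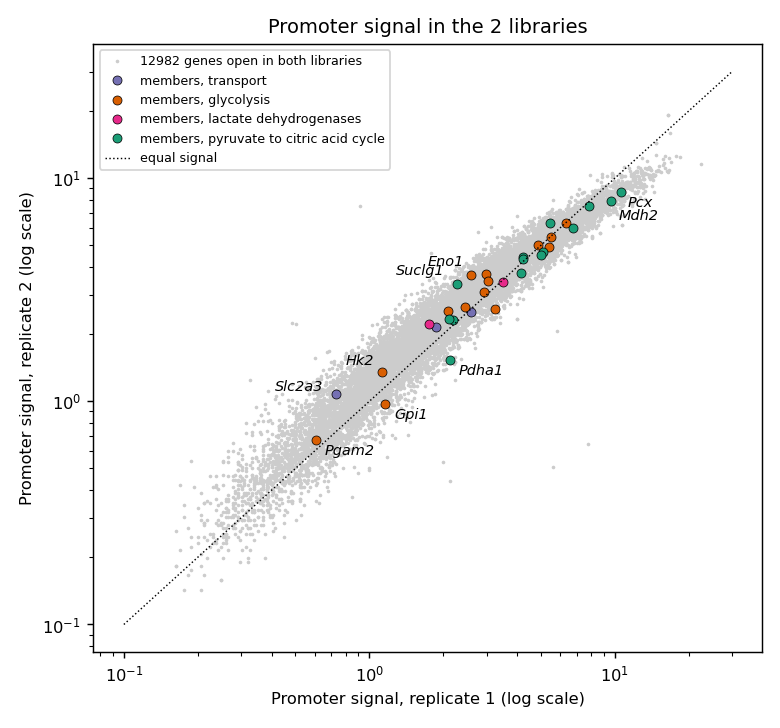
Promoter signal in replicate 2 (y axis, log scale) against replicate 1 (x axis, log scale) for the 12982 genes open in both libraries (grey) and the 33 open members (coloured by step), with equal signal as a dotted line. The members run along the cloud from Pgam2 at 0.606 and 0.668 to Pcx at 10.5 and 8.65, and none stands outside it.

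The CpG content of the promoters was not used by the list. In open genes it was read at the start nearest the highest peak of replicate 2. In closed genes it was read at the 5′ end of the record, so the start depended on the peak call. The observed to expected CpG ratio within 500 bp of the start had a median of 0.713 in the 33 open members, with a range of 0.327 to 0.974, against 0.164 in the 5 closed members, with a range of 0.102 to 0.237. At the 5′ end Hk1, an open member, had 0.109, inside the range of the closed members. Over all genes the medians were 0.736 for open genes, 0.187 for genes closed in both libraries and 0.585 for all protein-coding genes, so each class of members lay near the median of its class of genes. Eno2, at 0.666, lay among the open members, and the lowest open member was Pgam2, at 0.327. Since CpG content moved with peak calls over the whole genome, its part in the members' count of open promoters was not tested.

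The choice of start decided the call in 5 of the 33 open members, Hk1, Pfkm, Aldoa, Gapdh and Ldha. These were open at an inner start and not at the 5′ end of the record. Over all protein-coding genes, 12982 were open at any start and 11683 at the 5′ end. In Slc2a3 and Pfkl the call held and the mean was lower at the 5′ end, 0.808 against 0.903 and 3.04 against 3.24. At the 5′ end Hk1, Gapdh and Ldha had no peak in either library, while Pfkm and Aldoa had a low one in replicate 2 alone, of 0.406 and 0.716. Around the 5′ end the CpG ratio was 0.109 for Hk1, 0.259 for Aldoa, 0.286 for Gapdh and 0.264 for Ldha. Around the start with the open peak it was 0.554, 0.712, 0.590 and 0.763 in the same order. The inner start was therefore the richer in CpG in these 4 genes, whereas Pfkm had 0.561 at the 5′ end and 0.483 at the inner start.

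**Figure D4:**
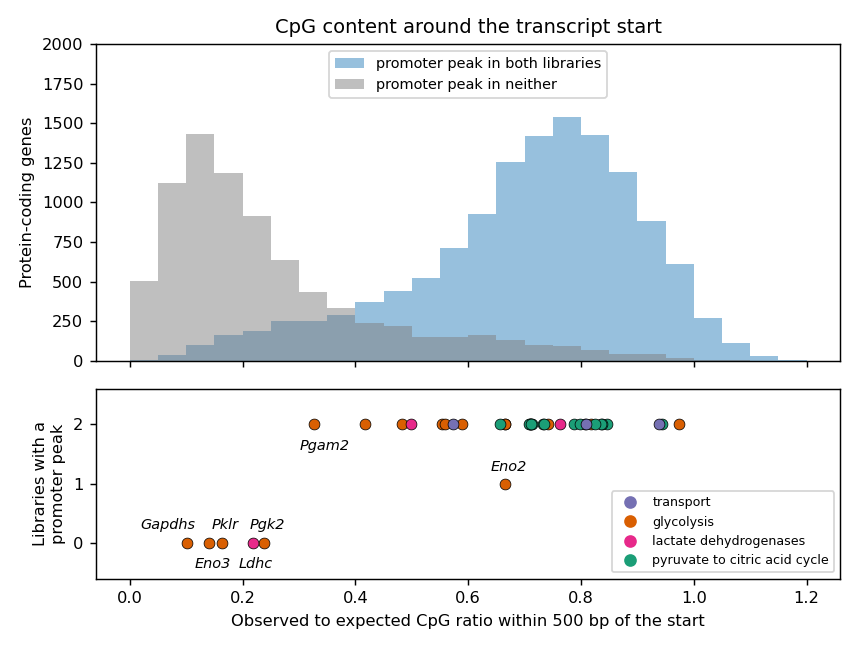
Observed to expected CpG ratio within 500 bp of the start (x axis). The start was the one nearest the highest peak of replicate 2 in open genes and the 5′ end in closed ones. The upper panel counts protein-coding genes with a promoter peak in both libraries (blue) or neither (grey), and the lower panel places each of the 39 members by the number of libraries with a promoter peak; Gapdhs, Pgk2, Eno3, Pklr and Ldhc sit between 0.102 and 0.237 and Eno2 at 0.666.

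Short stretches with few cuts inside open sites, called footprints, can mark bound protein. A footprint lay in the promoter window in both libraries in 33 of the 39 members (84.6%), the same genes that were open, and in 56.9% of all protein-coding genes. In replicate 2 alone the count was 34, against 59.6% of all genes, and in replicate 1 it was 33, against 58.8%. Eno2 had 5 in replicate 2 and 0 in replicate 1, and the 5 closed members had 0 in both. The members' windows held 276 footprints in replicate 1, of which 58.0% overlapped one of replicate 2, and 249 in replicate 2, of which 70.7% overlapped one of replicate 1. Over all protein-coding genes these shares were 53.6% and 62.3%. The median footprint was 11 bp wide in the members and 10 bp over all genes, close to the length of a factor's site.

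Motif letters were counted in the 300 bp around the centre of the highest promoter peak of replicate 2. In Slc2a3, Pfkl and Gpi1 the highest promoter peak of replicate 1 lay elsewhere. GGGCGG occurred in 24 of the 33 open members (72.7%) and in 66.7% of open genes, and 40 of its 55 matches in members lay in footprints of both libraries (72.7%), against 48.7% of the matches in all open genes. CCAAT occurred in 20 members (60.6%) and 40.2% of open genes, but 5 of its 33 matches in members lay in footprints of both libraries (15.2%), against 21% in all open genes. ACGTG occurred in 16 members (48.5%) and 27.5% of open genes, among them 2 of 3 transporters, 7 of 14 glycolytic genes, 1 of 2 lactate dehydrogenases and 6 of 14 mitochondrial genes. So the letters of the hypoxia element were not limited to glycolytic promoters, and 7 of the 28 ACGTG matches in members lay in footprints of both libraries (25%), against 23.1% in all open genes. The open members also had higher peaks, with a median signal of 3.24 against 2.30 for all open genes. The part of peak height in these footprint shares was not tested.

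The sequences printed above show how these matches differed from gene to gene. Around the Pcx peak centre all 4 ACGTG matches of the 300 bp, 3 of them printed, lay in footprints of both libraries, as did its GGGCGG. Around the Ldha peak centre ACGTG matched 5 times, 3 of them in the printed peak, and none of those matches lay in a footprint of either library, while the CRE at -47 bp from the start did so in both. The 2 ACGTG matches of Hk2 lay in no footprint. In Pgk1 the match at -150 bp from the start lay in a footprint of replicate 1 alone and that at -131 bp in none. Aldoa had 1 ACGTG match, at -126 bp from the start, and it and all 3 GGGCGG matches lay in footprints of both libraries.

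TGACGTCA, the CRE, occurred in 3 open members (9.09%), Ldha, Mdh2 and Ogdh, and in 4.02% of open genes, and all 3 matches lay in footprints of both libraries, as did 86.3% over all open genes. CACGTG occurred in 3 members (9.09% against 10.9% of open genes) and the palindromic Nrf1 motif in 3 (9.09% against 12.2%). CCGGAAG, bound by ETS factors, occurred in 4 members (12.1% against 19.5%), which were Idh3a, Idh3b, Idh3g and Mdh1, all of the mitochondrial group. AAGATGGCG (YY1) and the MEF2 motif each occurred in 1 member (3.03%), against 3.81% and 2.50% of open genes. TCAAGGTCA (ERR) and TGANTCA (AP-1) occurred in 0 of the 33, against 0.146% and 4.13% of open genes, which says only that these letters were not in these windows. Within 500 bp of the 5′ end of the record the shares differed. Of all 39 members, CCAAT matched there in 29 (74.4%, against 70.7% of all protein-coding genes), a smaller gap than around the peak centre. ACGTG matched in 24 (61.5% against 48.2%), GGGCGG in 30 (76.9% against 60.4%) and the CRE in 2 (5.13% against 3.32%). CCGGAAG matched in 12 (30.8% against 19.2%) and ERR in 3 (7.69% against 1.87%). CACGTG matched in 8 (20.5% against 17.1%), Nrf1 in 5 (12.8% against 8.83%) and YY1 in 2 (5.13% against 3.56%). The MEF2 motif, in 3 (7.69% against 11%), and AP-1, in 5 (12.8% against 18.9%), were below the share of all genes.

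Beyond the promoters, the gene records with 20 kb on either side held 244 peaks in replicate 1, of which 198 (81.1%) overlapped a peak of replicate 2, and 286 in replicate 2, of which 196 (68.5%) overlapped one of replicate 1. Over the whole libraries these shares were 81.6% and 62.0%. By place, the 198 shared peaks of replicate 1 were 58 at the members' own promoters, 40 at promoters of other protein-coding genes, 36 in introns, 3 in exons and 61 in the flanks. Outside all protein-coding promoters there were 99 matched sites with a median mean signal of 0.884. Slc2a3 had by far the most shared peaks, 18 of 20 in replicate 1, in a record of 73832 bp. Hk1 followed with 10, Slc16a1 with 9, and Tpi1 and Eno1 with 8 each, and Pgk2 had 0. In Tpi1, 4 of the 8 lay at promoters of other genes in its crowded neighbourhood.

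**Figure D5:**
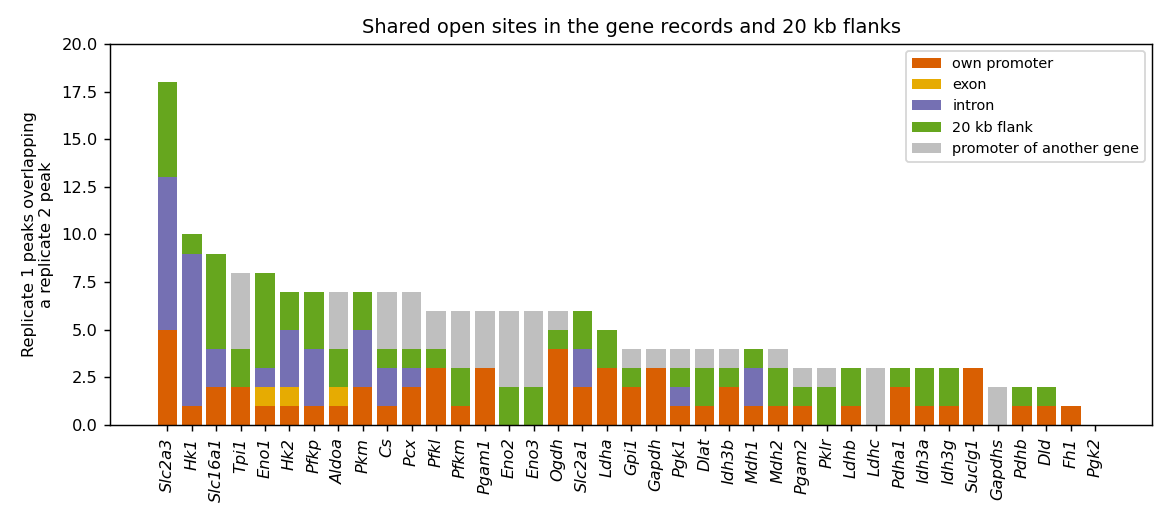
Number of replicate 1 peaks that overlap a replicate 2 peak (y axis) in each gene record and its 20 kb flanks (x axis, 39 genes in falling order), coloured by place. Slc2a3 stands first with 18, and Pgk2 has 0.

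The highest of these sites outside protein-coding promoters lay near Gpi1 and Slc2a3, whose own promoters were low. A site 3865 bp upstream of the Gpi1 5′ end had 7.99 in replicate 1 and 7.78 in replicate 2, a mean of 7.89 ± 0.142 (SD, n = 2), while the Gpi1 promoter stood at 1.16 and 0.970. It lay within 500 bp of starts of the antisense RNA Gm12758 and the lincRNA Gm12762, and held 5 and 4 footprints. Its sequence outside annotated exons, chr7:34234103-34234340 read on the - strand as Gpi1 is, holds 3 ACGTG matches and 1 GGGCGG match and is shown because it is the highest of these sites.
Gpi1 upstream site: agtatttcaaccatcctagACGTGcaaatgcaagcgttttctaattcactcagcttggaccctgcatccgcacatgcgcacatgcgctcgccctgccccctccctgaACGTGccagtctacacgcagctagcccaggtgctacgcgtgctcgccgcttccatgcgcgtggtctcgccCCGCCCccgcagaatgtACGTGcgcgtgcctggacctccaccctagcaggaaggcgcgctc

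The next sites were similar in both libraries. A site at -9261 bp from the Slc2a3 5′ end, at chr6:122810761-122811040, had 6.71 and 5.78, and its neighbour at -9811 bp had 3.13 and 2.98. Both lay within 500 bp of a start of Gm5112, an unverified transcript, and the closest protein-coding start was that of Foxj2. A site 8495 bp downstream of the Tpi1 5′ end, at chr6:124805681-124805920, had 4.64 and 5.14, and the closest protein-coding start was that of Spsb2, 2860 bp away. A site 28493 bp downstream of the Slc16a1 5′ end and beyond the end of its record, at chr3:104667041-104667280, had 2.56 and 2.97, higher than the Slc16a1 promoter at 1.86 and 2.15. A site 2484 bp upstream of the Ldha record, chosen after its values were seen, had 2.56 and 2.66, above the Ldha promoter at 1.75 and 2.21 with ranges apart. Which gene any of these sites acts on was not tested.

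The other enzymes, regulators and transporters of the same pathways gave a similar picture. Of 52 such genes 43 (82.7%) were open in both libraries and 8 were closed in both, against 59.2% and 36.4% of all protein-coding genes, and Hkdc1, a hexokinase-like gene, had a peak of 0.460 in replicate 1 alone. The median mean signal of the 43 was 3.35, against 2.30 for all open genes. The highest were Pdhx, the E3-binding subunit of pyruvate dehydrogenase, at 9.32 in replicate 1 and 8.48 in replicate 2, Bpgm, bisphosphoglycerate mutase, at 8.09 and 8.79, and Mpc2, a subunit of the mitochondrial pyruvate carrier, at 8.96 and 7.46. Among the closed genes were Hk3, Fbp1, G6pc, Pck1, Pdha2, Slc2a2 and Slc16a8. They include enzymes of glucose synthesis in liver and kidney (Fbp1, G6pc, Pck1), the liver and islet glucose transporter (Slc2a2) and the testis form of pyruvate dehydrogenase (Pdha2).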

How the data were processed

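Per the labels and the deposited notes, each library was aligned to mm10 and its peaks, footprints and base intervals were made from that library alone. The names of the aligner and callers were not given in the sources used here. The mice were a cross, but alignment used 1 reference assembly. The deposited peak height is a signal whose normalization is not stated. Its values were whole multiples of 1 step in 100% of peaks, within 0.05 of a step, and no count test was run on it. The base intervals carry deposited false discovery rates (adjusted p-values), of which those below 0.05 were used. The deposited footprints all carry the p-value type threshold 0.01 and were used as present or absent.

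Results rest on the larger peak list of each library, with the smaller list (55102 and 78377 peaks) as the stricter alternative. Scripts in Python 3.11.15 with pandas 2.3.3 and numpy 2.4.6 read promoters from GENCODE M21 and sequence from the GRCm38 assembly of RefSeq through samtools 1.23.1, with a minimum overlap of 1 bp. The overlap steps were tested on simulated data. Values are given per library and as mean and SD over 2 libraries. The members, gene lists and motifs were chosen with earlier results of these data known, so no set test or p-value was computed. Named by rule were all members, the 5 highest sites outside promoters, and of the other pathway genes the 3 highest and the closed ones, of which 1 is not reported here. Alternatives were the stricter list, a window of 2000 bp, the 5′ end alone, no flank, a reciprocal overlap of 0.5, scaled signal and each library left out.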

Additional observations from a re-analysis of the deposited data

How the results depend on the processing

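The count of open members, 33 of 39, was 31 with the stricter peaks, where Pgam2 was lost in both libraries and Slc2a3 in replicate 1, 33 with a window of 2000 bp and 28 at the 5′ end of the record alone. With 1 library left out the count was 33 to 34. Footprints in the promoter window gave 33 to 34 genes under all alternatives run. The median signal of the open members was 3.24, and 3.25 with scaled signal, 3.09 at the 5′ end alone and 3.03 to 3.44 with 1 library left out. The count of shared peaks in the gene records and flanks, 198, was 131 with the stricter peaks and 97 without the flanks, both of which take fewer peaks by construction, 160 with a reciprocal overlap of 0.5, and 244 to 286 when 1 library alone was counted. Signal scaled by the library's median over shared peaks moved 2 of 33 members, Hk1 and Aldoa, by more than their SD, to 5.52 and 6.36. No paired analysis between groups was possible because there was only 1 group. With 2 libraries, no difference between genes smaller than the libraries' spread can be read. Low heights rest on few steps of the signal, from 84 in Pgam2 to 139 in the higher Eno2 promoter peak of replicate 2. Slc2a3 and Gpi1 had 121 and 122 in their lower library.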

Other observations

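The 3 members on the X chromosome, Pgk1, Pdha1 and Idh3g, were all lower in replicate 2 than in replicate 1, with log2 ratios of -0.33, -0.47 and -0.14. Of the 30 open members on the other chromosomes, 12 were lower in replicate 2, with a median log2 ratio of 0.07. Over all open genes, 158 of 421 on the X chromosome and 3806 of 12561 on chromosomes 1 to 19 were lower in replicate 2, with median log2 ratios of 0.09 and 0.15.

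Eno3 and Idh3g, chosen after their values were seen, had many more peaks in replicate 1 than in replicate 2 across the record and flanks, 18 against 7 and 10 against 3. In Eno3, most of the peaks of replicate 1 without a partner touched promoters of the neighbouring genes Slc25a11, Rnf167, Pfn1 and Spag7, and their signal ran from 0.242 to 0.988. Slc2a1 had 7 peaks in replicate 1 and 15 in replicate 2, of which 6 were shared.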
